A study of Homo sapiens with 6 samples.

Results

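The human mitochondrial genome is represented by 5 of the 14686 genomic regions in the deposited table, namely all those placed on chrM. They were chosen by position, with no filter on their values, though earlier results of these data were known. Of these regions 2 carry a name in the table, cytochrome b and BC018860 (the accession of a cDNA record, to which no gene is assigned here), and 3 have only a number, NOVEL_2195, NOVEL_2196 and NOVEL_2197. The libraries came from H9, a long-established line of human embryonic stem cells (hESCs), with no genetic change recorded. The 3 endoderm libraries hold cells differentiated from hESCs for 6 days in activin A at 100 ng/ml, with 0% fetal bovine serum at first, 0.2% on the second day and 2% afterwards, and a medium change on day 3. They were collected at 0 h (labelled G1), 3 h (G1/S) and 6 h (S). The 3 libraries of undifferentiated hESCs, kept on matrigel in conditioned medium, were collected at 0 h (G1), 2 h (G1/S) and 3 h (S). How cells were brought into phase is not given in the sources used here. Medium, serum and activin A differed along with cell type, so their parts cannot be told apart, and each type and phase has 1 library.

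Mitochondrial DNA is a small circular genome that encodes core subunits of the respiratory chain together with the ribosomal and transfer RNAs needed to translate them. It is copied into long precursor RNAs from both strands, which are cut at the transfer RNAs, and the messenger and ribosomal RNAs then receive short poly(A) tails. Pluripotent stem cells are known for immature mitochondria and a reliance on glycolysis. All genes for transcription, processing and replication of mitochondrial DNA lie in the nucleus.

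Cytochrome b, the subunit of respiratory complex III that the mitochondrial genome encodes, shows why an oligo(dT) method reads this genome. The GENCODE v29 transcript of MT-CYB is 1141 bases long, which is 380 whole codons and 1 base over, so the poly(A) tail supplies the rest of its stop codon. Its last 60 bases are given to show that end, with the final T, the first base of the stop codon, in capitals.
MT-CYB transcript end: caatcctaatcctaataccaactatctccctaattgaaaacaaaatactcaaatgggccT

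In the deposited coordinates (the submitters' processing notes name hg18 and NCBI36), NOVEL_2195 lies at chrM:2-1058, NOVEL_2196 at chrM:1212-1485, NOVEL_2197 at chrM:1634-1926, BC018860 at chrM:10452-10967 and cytochrome b at chrM:15013-16577. The end of the last may lie past the final base of chrM in that build, whose sequence was not used here, so its width is uncertain. The 3 unnamed regions are close neighbours, 153 and 148 bases apart, and 8525 bases separate the last of them from BC018860. The table gives no strand, and no annotation of that build was used here, so the transcripts under the unnamed regions are not named. Nuclear DNA holds copies of mitochondrial sequence, and how reads with several matches were placed is not given, so the assignment of reads to chrM is uncertain to that extent.

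The values, here called signal, are the reads of each region over the size factor of its library. Depth ran from 2502792 reads in endoderm S to 6203079 in hESC S. The summed signal of 9 measured definitive endoderm markers was 15532 to 30370 in endoderm and 913 to 1148 in hESCs. That of 9 measured pluripotency markers was 1691 to 1991 in endoderm and 3285 to 4521 in hESCs, a gap carried by SOX2, UTF1 and DNMT3B, which were lower in every endoderm library than in every hESC library. L1TD1 was higher in every endoderm library than in every hESC library, and the types overlapped for the other 5, POU5F1 among them (255 to 312 in endoderm and 154 to 596 in hESCs). The 4 of 8 fibroblast markers with a region summed to 4408 to 5543 in endoderm and 7937 to 11366 in hESCs. COL1A1 and THY1 carried that gap, while COL1A2 and FBLN1 overlapped between the types, and the part of these markers in the chrM results was not tested. The G1/S libraries stood apart from the rest: across 8834 named regions, the rank correlation between GC content of the transcript end and the deviation from the mean of the same type was 0.43 in both endoderm G1/S and hESC G1/S, against -0.38 and -0.12 in endoderm G1 and S and -0.16 and -0.32 in hESC G1 and S. The part of GC content in the results below was not tested.

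The summed reads of the 5 chrM regions were a smaller part of the reads in all regions of the table in the endoderm libraries than in the hESC libraries. They made up 0.716% of these reads in endoderm G1 (95% Wilson interval 0.709 to 0.724), 1.29% in endoderm G1/S (1.27 to 1.30) and 0.522% in endoderm S (0.513 to 0.531). Reads outside the regions of the table are not counted, so these are not mitochondrial fractions of a whole library. In hESCs they made up 3.03% at G1 (3.01 to 3.04), 2.60% at G1/S (2.58 to 2.61) and 1.97% at S (1.96 to 1.98). Every endoderm library was below every hESC library, and the endoderm G1/S library was the closest to them. Amplified reads are not independent molecules, and the intervals cover only the error of counting. Fewer cells of a type and less RNA per cell cannot be told apart in such bulk samples.

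The summed signal of the 5 regions was 26661, 68629 and 22346 in endoderm at G1, G1/S and S, against 113984, 113512 and 72080 in hESCs at G1, G1/S and S. The sum was thus lower in endoderm within each phase, at 0.234 of the hESC level at G1, 0.605 at G1/S and 0.310 at S. On the log2(signal + 1) scale the mean difference was -1.50 (exact permutation test, two-sided, p = 0.1, the smallest that 3 against 3 libraries can give). Without BC018860, which holds most of the reads, it was -1.70.

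**Figure D1:**
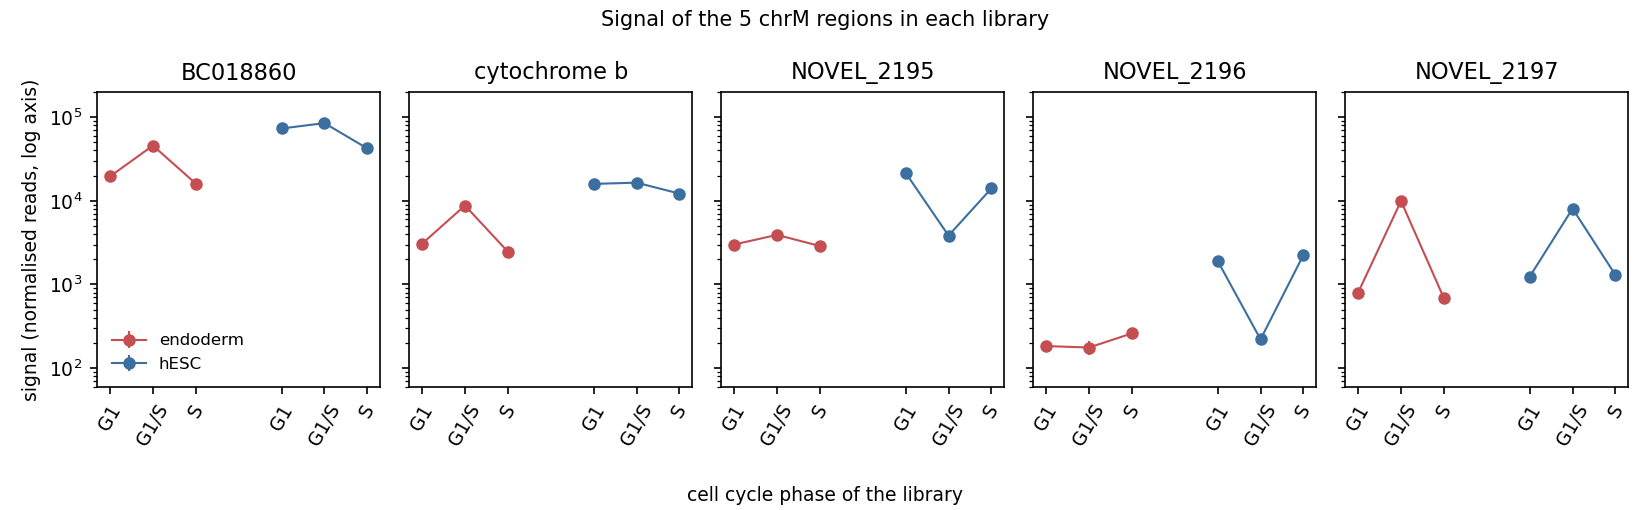
Signal of each chrM region (reads divided by a size factor, log axis) in the 3 endoderm libraries (red, left) and the 3 hESC libraries (blue, right), by phase, with 95% counting intervals that are mostly smaller than the points. BC018860 and cytochrome b sit lower in endoderm, NOVEL_2197 peaks at G1/S in both types, and NOVEL_2195 and NOVEL_2196 dip at G1/S in hESCs.

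In the fit across all regions, with terms for cell type and phase, 3 of the 5 regions passed the threshold and all 3 were lower in endoderm. Among all 14657 regions tested, 14.5% passed in either direction, 7.6% as lower and 6.9% as higher. At an unadjusted p under 0.05 there were 4 of the 5 chrM regions, beside 34.2% of all regions. The median log2 difference of the 5 regions was -1.70, beside 0.02 over all regions tested.

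BC018860 was the most abundant chrM region and ranked 2 among all regions of the table by mean signal. It had a signal of 19603, 45795 and 16049 in endoderm at G1, G1/S and S, against 73304, 84889 and 42232 in hESCs at G1, G1/S and S. The types overlap, since the endoderm G1/S value lies just above the hESC S value, while within each phase endoderm was lower. The log2 difference was -1.40 ± 0.22 (SE, limma adjusted p = 0.0106), and the mean signal fell to 27149 ± 16246 in endoderm, against 66808 ± 22058 in hESCs (SD, n = 3 each). The call was lost without both G1/S libraries (limma adjusted p = 0.0665), with a larger difference of -1.65. It was also lost without either of them. Those fits give the same -1.65 by construction, since the phase term fits the remaining G1/S library exactly.

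Cytochrome b had a signal of 3070, 8794 and 2467 in endoderm at G1, G1/S and S, against 15945, 16491 and 12211 in hESCs at G1, G1/S and S. It was the only one of the 5 regions whose types did not overlap, with every endoderm library below every hESC library, a pattern seen in 18.7% of all regions tested. The log2 difference was -1.86 ± 0.31 (SE, limma adjusted p = 0.0117), from a mean of 4777 ± 3492 in endoderm and 14882 ± 2329 in hESCs (SD, n = 3 each). It passed without both G1/S libraries (-2.34, limma adjusted p = 0.0394). Without a library of G1, G1/S or S the log2 difference was -1.61, -2.34 or -1.64, the same by construction whichever type lost the library. BC018860, cytochrome b and NOVEL_2196 all missed the threshold without the intensity trend in the variance (limma adjusted p = 0.0738, 0.0605 and 0.102).

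NOVEL_2196, the weakest of the 5, had a signal of 184, 176 and 260 in endoderm at G1, G1/S and S, against 1913, 221 and 2257 in hESCs at G1, G1/S and S. Its large gap between the types came from G1 and S, where the hESC value was 10.4 and 8.68 times the endoderm value. In G1/S the values were 176 (counting interval 144 to 213) in endoderm and 221 (192 to 253) in hESCs, with overlapping intervals. The log2 difference over all phases was -2.27 ± 0.56 (SE, limma adjusted p = 0.0376), and -3.24 without both G1/S libraries (limma adjusted p = 0.0321). Leaving out only 1 of them gives the same -3.24 by construction. The call was lost without either S library, with the same difference of -1.85 by construction. It was also lost without the phase term (limma adjusted p = 0.0593) and with a stricter filter on low values (0.0514).

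NOVEL_2195, its neighbour, shared the low value in hESC G1/S but not the order of the endoderm libraries. Its signal was 3003, 3918 and 2884 in endoderm at G1, G1/S and S, against 21584, 3840 and 14083 in hESCs at G1, G1/S and S. The endoderm libraries lay close together, within 1.36-fold, whereas the hESC libraries spanned 5.62-fold, with G1/S at the endoderm level. The log2 difference of -1.70 ± 0.49 (SE) did not pass (limma adjusted p = 0.0579). It passed without both G1/S libraries (-2.57, limma adjusted p = 0.0386), and leaving out only 1 of them gives the same -2.57 by construction. It also passed when libraries were scaled to their total reads (-1.87, limma adjusted p = 0.0333), with quantile normalisation (-1.94, 0.0375) and with DESeq2 (-1.75, adjusted p = 0.00341).

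NOVEL_2197 differed from the other 4 regions in showing little contrast between the types. It had a signal of 801, 9945 and 686 in endoderm at G1, G1/S and S, against 1238, 8072 and 1297 in hESCs at G1, G1/S and S. Endoderm was lower in G1 and S, at 0.647 and 0.529 of the hESC signal, and higher in G1/S, so the types overlap. In RPM the G1/S values were nearly equal, at 1865 in endoderm and 1848 in hESCs. The log2 difference was -0.41 ± 0.28 (SE, limma adjusted p = 0.323), and -0.77 without both G1/S libraries.

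**Figure D2:**
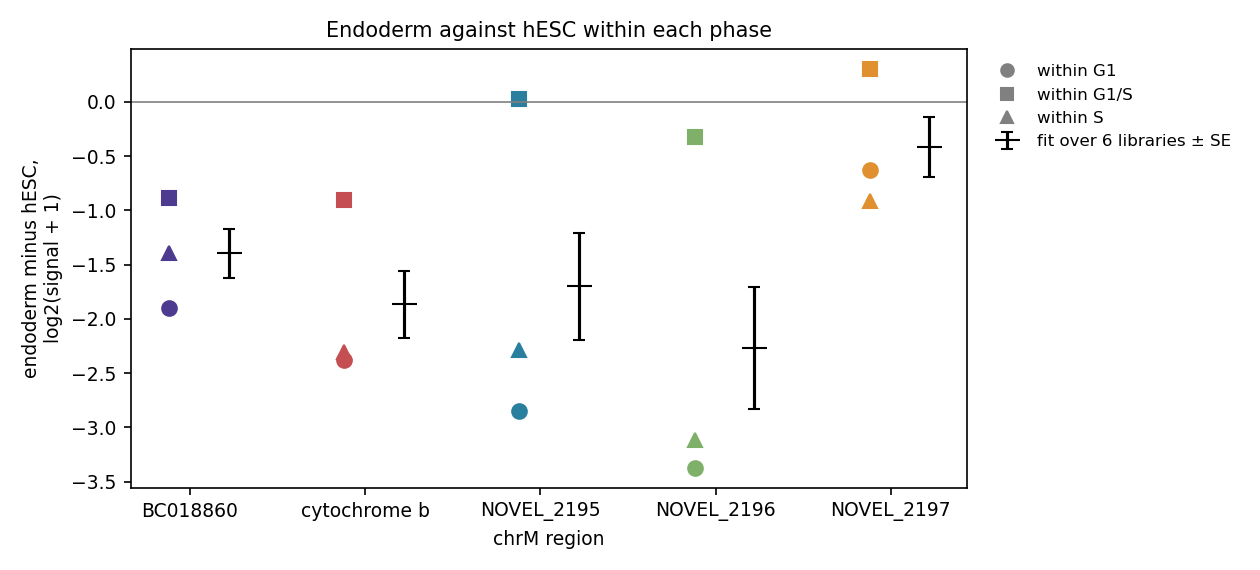
Endoderm minus hESC on the log2(signal + 1) scale for each chrM region, within G1 (circle), G1/S (square) and S (triangle), with the fitted difference over the 6 libraries ± SE in black. In every region the G1/S square is the one nearest to or above 0, from -0.91 for cytochrome b to 0.30 for NOVEL_2197.

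Between phases, the clearest contrast was the G1/S peak of NOVEL_2197. Its signal in G1/S was 12.4 times that in G1 and 14.5 times that in S in endoderm, and 6.52 and 6.22 times in hESCs. The contrast stands on 5978 reads in endoderm G1/S and 7753 in hESC G1/S, against 401 to 2196 in the other libraries. Scaled to the library total instead of the size factor, it was at 1865 RPM in endoderm G1/S, against 215 and 160 RPM in endoderm G1 and S, and at 1848 RPM in hESC G1/S, against 329 and 354 RPM in hESC G1 and S.

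No chrM region passed in the test of G1/S against G1 over both types, and neither did any other region (0% of 14657 with limma, 0 with edgeR and 89 with DESeq2, and 2002, or 13.7%, at an unadjusted p under 0.05, among them NOVEL_2197 and BC018860). NOVEL_2197 differed by 3.17 ± 0.34 on the log2 scale (SE, limma adjusted p = 0.323). DESeq2 called it (log2 difference 3.21, adjusted p = 1.80e-09), and limma called it without endoderm G1 (adjusted p = 0.00245), endoderm S (0.00488), hESC G1 (0.00227) or hESC S (0.0179), but not without endoderm G1/S (0.231) or hESC G1/S (0.780). Of 14657 regions, 24.5% were higher in G1/S than in G1 and S in both types. Taking for each region the smallest of its 4 log2 differences of G1/S from G1 and from S, the 2.64 of NOVEL_2197 was reached by 1 region, NOVEL_2197 itself. That measure was chosen after its values were seen and is given as a description.

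**Figure D3:**
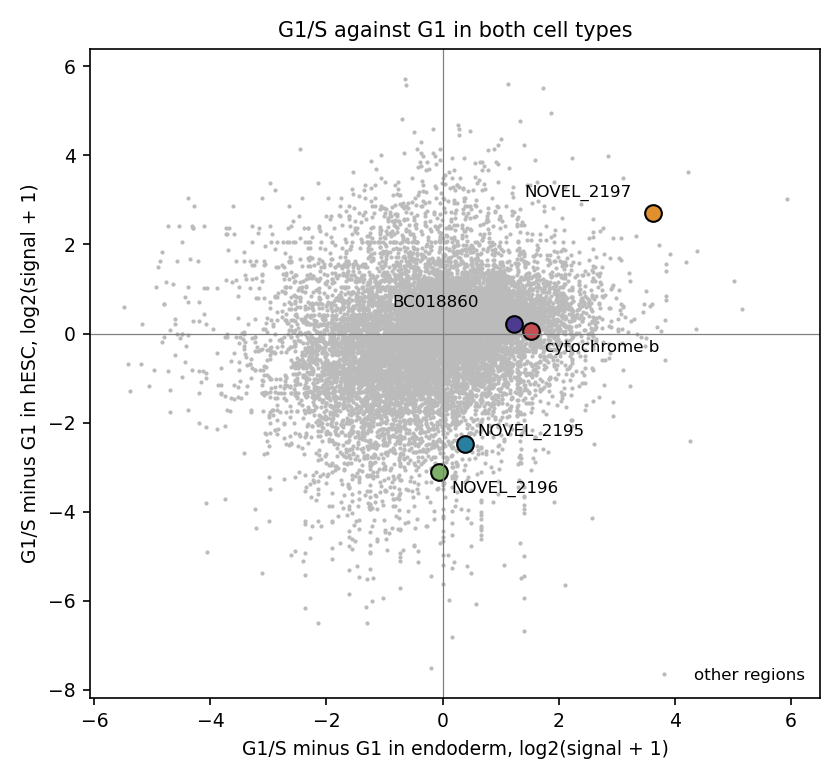
G1/S minus G1 on the log2(signal + 1) scale in endoderm (horizontal axis) and in hESCs (vertical axis), with 1 point per region tested and the 5 chrM regions enlarged. NOVEL_2197 lies far to the upper right (3.63 and 2.70), NOVEL_2195 and NOVEL_2196 lie low (-2.49 and -3.11 in hESCs) near 0 in endoderm, and BC018860 and cytochrome b lie to the right (1.22 and 1.52 in endoderm) near 0 in hESCs.

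BC018860 and cytochrome b were higher in G1/S than in G1 mainly in endoderm. In endoderm the G1/S signal was 2.34 times that in G1 for BC018860 and 2.86 times for cytochrome b, and in hESCs 1.16 and 1.03 times. In RPM the hESC direction turned, with 19436 at G1/S and 19484 at G1 for BC018860 and 3776 at G1/S and 4238 at G1 for cytochrome b. Over both types the log2 differences were 0.72 ± 0.28 and 0.78 ± 0.38 (SE, limma adjusted p = 0.364 and 0.383). BC018860 passed only without the hESC G1 library (1.10, limma adjusted p = 0.0173), and the cytochrome b difference was 0.07 without endoderm G1/S and 1.501 without hESC G1/S. Whether this contrast differs between the types could not be tested with 1 library of each type and phase.

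NOVEL_2195 and NOVEL_2196 went the other way in hESCs. The G1/S signal there was 0.178 of the G1 signal for NOVEL_2195 and 0.115 for NOVEL_2196, whereas in endoderm it was 1.30 and 0.960 of the G1 signal. The endoderm direction of NOVEL_2195 depends on the scaling: in RPM it was at 735 in endoderm G1/S, below the 807 of endoderm G1. The fitted log2 differences over both types, which assume a shared phase effect, were -1.05 ± 0.60 and -1.58 ± 0.68 (SE, limma adjusted p = 0.426 and 0.366). Both rest on the hESC G1/S library: without it they were 0.24 and -0.12, and without endoderm G1/S -2.35 and -3.04 (limma adjusted p between 0.198 and 0.948). These neighbours of NOVEL_2197 were thus low in hESC G1/S, where NOVEL_2197 was high.

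From G1/S to S the courses turned back. NOVEL_2197 had a log2 difference, S minus G1/S, of -3.25 ± 0.34 (SE, limma adjusted p = 0.289), BC018860 -1.26 ± 0.28 and cytochrome b -1.13 ± 0.38 (limma adjusted p = 0.463 each), while NOVEL_2196 had 1.95 ± 0.68 and NOVEL_2195 0.72 ± 0.60 (limma adjusted p = 0.463 and 0.604). No region of the table passed (0% with limma, 0 with edgeR, 150 with DESeq2, and 1552, or 10.6%, at an unadjusted p under 0.05, among them the chrM regions other than NOVEL_2195). NOVEL_2197 passed with DESeq2 (adjusted p = 8.17e-10) and in limma fits without endoderm G1 (adjusted p = 0.000259), endoderm S (0.0181) or hESC G1 (0.000175). BC018860 passed without endoderm G1 (limma adjusted p = 0.0128) or hESC G1 (0.00416), and cytochrome b without hESC G1 (0.0491). Without hESC G1/S the difference was -0.58 for NOVEL_2195, 0.49 for NOVEL_2196 and -1.85 for cytochrome b, and without endoderm G1/S it was 2.01, 3.41 and -0.42 in the same order. Quantile normalisation brought that of BC018860 to -0.57.

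S and G1 libraries differed less. Log2 differences, S minus G1, were -0.54 ± 0.28 (SE) for BC018860, -0.35 ± 0.38 for cytochrome b, -0.34 ± 0.60 for NOVEL_2195, 0.37 ± 0.68 for NOVEL_2196 and -0.08 ± 0.34 for NOVEL_2197, with limma adjusted p between 0.982 and 0.997. No region of the table passed (0% with limma, 0 with edgeR, 1 with DESeq2), and 3.39% had an unadjusted p under 0.05, with none of the 5 chrM regions among them. BC018860 passed without the endoderm G1 library (-0.92, limma adjusted p = 0.0495). The sign of the other 4 turned in fits without 1 library, so no direction is given for them.

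The make-up of the chrM reads does not depend on how libraries are scaled. BC018860 held 73.5%, 66.7% and 71.8% of them in endoderm at G1, G1/S and S, against 64.3%, 74.8% and 58.6% in hESCs at G1, G1/S and S. It was the largest share in each library. Cytochrome b held 11.5%, 12.8% and 11.04% in endoderm, against 13.99%, 14.5% and 16.9% in hESCs, so every endoderm share lay below every hESC share (difference of means -3.36 percentage points, exact permutation p = 0.1, adjusted p = 0.5 over 5 shares). The ratio of BC018860 to cytochrome b signal stayed between 5.21 and 6.51 in endoderm and between 3.46 and 5.15 in hESCs.

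The shares of the unnamed regions varied most, relative to their size. NOVEL_2195 held 11.3%, 5.71% and 12.9% of chrM reads in endoderm at G1, G1/S and S, against 18.9%, 3.38% and 19.5% in hESCs at G1, G1/S and S. NOVEL_2197 held 3.00%, 14.5% and 3.07% in endoderm, against 1.09%, 7.11% and 1.80% in hESCs. NOVEL_2196 held 0.689%, 0.257% and 1.16% in endoderm, against 1.68%, 0.194% and 3.13% in hESCs. In both types the share of NOVEL_2195 and NOVEL_2196 was lowest and that of NOVEL_2197 highest in G1/S, so that the ratio of NOVEL_2196 to NOVEL_2197 was 0.0177 in endoderm G1/S and 0.0273 in hESC G1/S, against 0.229 and 0.379 in endoderm G1 and S and 1.54 and 1.74 in hESC G1 and S. Between the types these 3 shares and that of BC018860 had exact permutation p between 0.4 and 0.6, with adjusted p = 0.6 each.

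**Figure D4:**
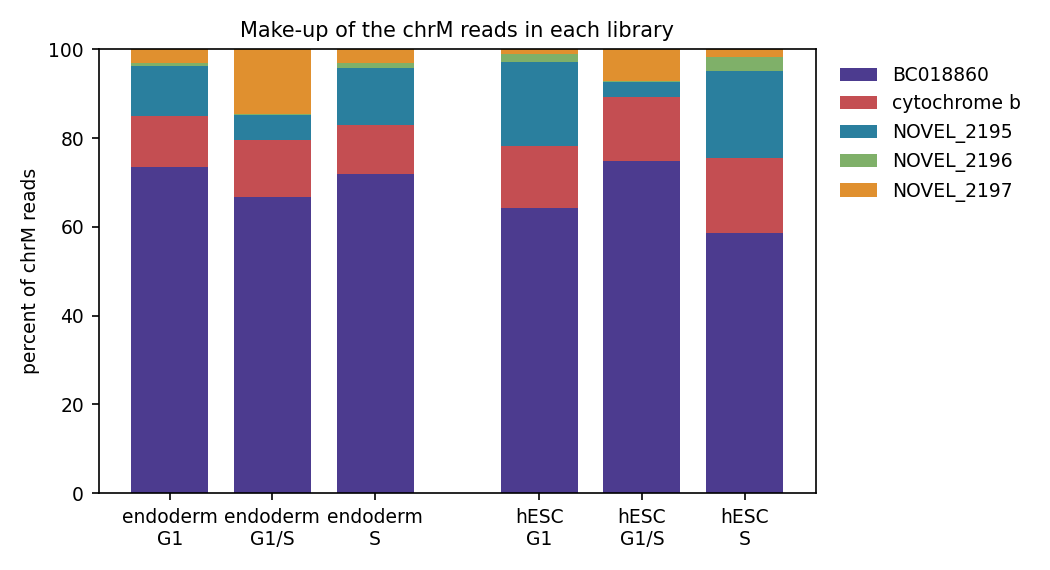
Share of the chrM reads held by each of the 5 regions, in percent, as stacked bars for the 3 endoderm libraries (left) and the 3 hESC libraries (right). BC018860 holds 58.6% to 74.8% in each library, and the NOVEL_2197 segment is largest in the G1/S bar of both types (14.5% in endoderm and 7.11% in hESCs).

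Per 100 bases of region, BC018860 had the highest mean signal of the 5, at 5261 in endoderm and 12947 in hESCs. NOVEL_2197 followed in endoderm at 1301, then NOVEL_2195 at 309, cytochrome b at 305 and NOVEL_2196 at 75.4. In hESCs the order was NOVEL_2195 at 1246, NOVEL_2197 at 1207, cytochrome b at 951 and NOVEL_2196 at 534. The place of NOVEL_2197 in endoderm rests on G1/S, since at G1 and S it was below NOVEL_2195 per 100 bases. The library values of neighbours in these orders overlap, except for cytochrome b above NOVEL_2196 in endoderm and BC018860 above NOVEL_2195 in hESCs. With oligo(dT) priming, reads need not scale with width, so these are not orders of transcript abundance. The cytochrome b values also use the width called uncertain above.

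Nuclear genes that serve mitochondrial DNA and its RNA were read against the shares of all regions, of which 14.5% passed in endoderm against hESC (6.9% as higher) and 34.2% had an unadjusted p under 0.05. Of 11 measured genes of mitochondrial DNA transcription and maintenance none passed in endoderm against hESC, with a median log2 difference of -0.51 beside 0.02 over all regions, and 1 had an unadjusted p under 0.05. The helicase gene C10orf2 was at 200, 401 and 356 in endoderm at G1, G1/S and S, against 220, 315 and 356 in hESCs. The mitochondrial topoisomerase gene TOP1MT was at 242, 271 and 161 in endoderm, against 317, 315 and 429 in hESCs (-0.67 ± 0.32 SE, limma adjusted p = 0.180). Its types did not overlap, with every endoderm library below every hESC library, as in 18.7% of all regions. Outside the naming rule, TFAM, the packaging and transcription factor of mitochondrial DNA, had a log2 difference of 0.00 ± 0.50 (SE) at a mean signal of 14.8 in both types, and the RNA polymerase gene POLRMT -0.75 ± 0.40. The TFAM signal of 4.99 in endoderm G1/S is that of 3 reads, so a lack of change is not read from it.

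Of 17 measured genes of mitochondrial RNA processing, polyadenylation and stability none passed (3 at an unadjusted p under 0.05), with a median of 0.05. HSD17B10, a subunit of the mitochondrial RNase P, had a log2 difference of -0.34 ± 0.26 (SE), the helicase gene DHX30 -0.28 ± 0.25 and LRPPRC, which stabilises mitochondrial messenger RNAs, -0.30 ± 0.32. Of 10 measured nuclear genes of complex III, the partners of cytochrome b, none passed (0 at an unadjusted p under 0.05), with a median of -0.10. The core subunit gene UQCRC1 was at 2446, 5352 and 3413 in endoderm at G1, G1/S and S, against 4014, 4645 and 2390 in hESCs (0.00 ± 0.27 SE, limma adjusted p = 0.998), and UQCR had -0.12 ± 0.22 (limma adjusted p = 0.734).

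Of 6 measured regulators of mitochondrial biogenesis 1 passed as higher and none as lower, with a median of 0.69. Of 14 measured genes of mitochondrial content 2 passed as higher and none as lower, with a median of -0.10. At an unadjusted p under 0.05 there were 2 regulators and 4 content genes. Beside these counts stand the 14.5% of all regions that passed and the 34.2% at an unadjusted p under 0.05. Neither list is shown to differ from these shares. Of the 14 content genes 8 had a log2 difference below 0, among them VDAC3 (-1.23 ± 0.43 SE, limma adjusted p = 0.0951) and HSPD1 (-1.12 ± 0.42 SE, limma adjusted p = 0.111). MYC, a growth factor-driven transcription factor, was at 30.4, 21.6 and 27.4 in endoderm at G1, G1/S and S, against 6.05, 6.25 and 6.50 in hESCs (1.91 ± 0.50 SE, limma adjusted p = 0.0443). Its hESC values rest on few reads, since 3 reads give 2.27, 3.12 and 1.77 there at G1, G1/S and S. The MYC call was lost with any 1 library left out and with both scalings to total reads (limma adjusted p = 0.0589 and 0.0606). The outer membrane channel gene VDAC2 was at 298, 93.2 and 192 in endoderm, against 87.0, 49.98 and 69.7 in hESCs (1.37 ± 0.32 SE, limma adjusted p = 0.0329). The import receptor gene TOMM20 was at 336, 211 and 234 in endoderm, against 93.8, 77.0 and 135 in hESCs (1.35 ± 0.32 SE, limma adjusted p = 0.0324). Both calls were lost without either G1/S library and without either G1 library. They were also lost with scaling to total reads (limma adjusted p = 0.0594 for VDAC2 and 0.0573 for TOMM20) and without the intensity trend (0.0726 and 0.0795). The call of VDAC2 was lost too without either S library and without the phase term (limma adjusted p = 0.0751). In MYC, VDAC2 and TOMM20 every endoderm library was above every hESC library, as in 14.7% of all regions.

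**Figure D5:**
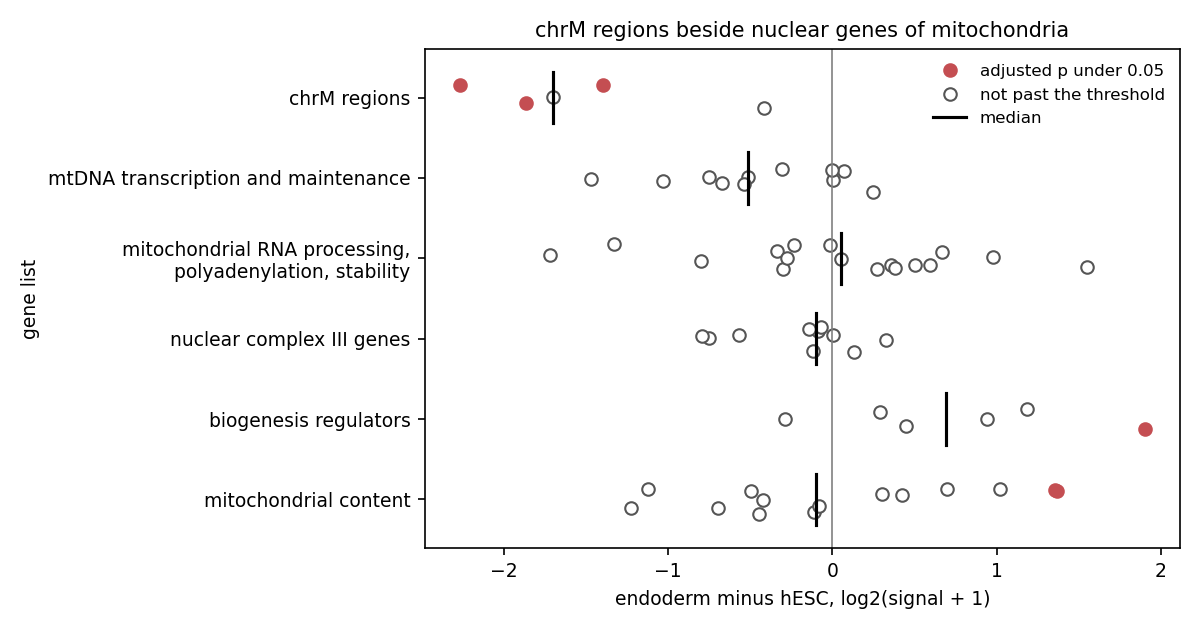
Endoderm minus hESC on the log2(signal + 1) scale for the chrM regions and for the measured nuclear genes of 5 mitochondrial lists, with filled points past an adjusted p of 0.05 and a black bar at each median. The chrM median is -1.70, and the list medians lie between -0.51 and 0.69.

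Among 4215 named genes outside chrM with a mean signal of at least 100, those most like the summed chrM signal over the 6 libraries were APBA2, an adaptor that binds amyloid precursor protein (Pearson r = 0.997), VARS, a valyl-tRNA synthetase (0.995), the prohibitin gene PHB (0.990), the tetraspanin gene TSPAN33 (0.989) and NME3 of the nucleoside diphosphate kinase family (0.986). APBA2 was at 58.7, 121 and 49.6 in endoderm at G1, G1/S and S, against 172, 183 and 138 in hESCs, which is the order of the chrM sum with hESC G1 and G1/S exchanged. Most opposite were C6orf48 (-0.995), the translation initiation factor gene EIF3H (-0.985) and C17orf45 (-0.985). The 6 points share library, depth and the GC pattern given above, 16.0% of these genes had r above 0.8, and the values are descriptions.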

How the data were processed

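Per the labels' protocols, poly(A) RNA was selected with oligo(dT) beads, sheared, primed with an oligo(dT) adapter and sequenced from 6 libraries. Per the submitters' processing notes the tools included Bowtie 0.12.7, DESeq 1.5.24 and CASAVA 1.5, named without their roles. The deposited values are a linear signal, the reads per region that the authors divided by 1 size factor per library. Multiplied by the size factor, 100% of the values came out as whole reads in every library (tolerance 1e-06). A read was worth 0.591 to 1.71 of signal, and a count of 0 allows up to 1.77 to 5.13 (3 reads). No deposited column of values was left unused.

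Regions with log2(signal + 1) of at least 1 in 3 or more libraries were kept (14657, with 29 removed), and all 5 chrM regions passed. The test was limma 3.58.1 (R 4.3.3) on log2(signal + 1), with terms for cell type and phase, an intensity trend and Benjamini-Hochberg adjustment over all regions kept at a threshold of 0.05. Residual degrees of freedom were 2, with 5.46 more from the prior. Such differences understate changes of weak regions. Nothing in the labels tells of separate cultures, and each type and phase has 1 library. The residual spread behind the p-values is thus how far the phase courses of the 2 types depart from each other, moderated by the prior from all regions. That departure may be technical, and no spread between replicates is measured. Alternatives were edgeR 4.0.16 (quasi-likelihood) and DESeq2 1.42.0 on the recovered reads, other scalings, filters and pseudocounts, and libraries left out. The fit was also run on simulated data with independent noise, without phase effects that differ between the types or a shift with GC content. That run therefore does not show how the fit behaves with such features. GC content came from the last 500 bases of GENCODE v29 transcripts, found for 85.2% of named regions.

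The regions, lists and tests were chosen with earlier results of these data known. Named in the text are all 5 chrM regions. Of each list up to 3 called genes are named or, with none, the 2 of highest mean signal. The 5 genes most like and the 3 most opposite to the chrM sum are named too. TFAM, POLRMT, LRPPRC, RRM2B, PPRC1, NSUN4, VDAC3, HSPD1, C14orf156 and SUPV3L1 fall outside these rules and were chosen after their values were seen. A gene with several regions was represented by the one with the highest mean. Lists of immediate early genes (7 measured, summed signal 1440 to 3505 in endoderm and 739 to 1357 in hESCs) and nuclear retained RNA (0 measured) were read as well, and their part in the chrM results was not tested.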

Additional observations from a re-analysis of the deposited data

Results flagged for a closer look

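In signal, NOVEL_2195 was higher at G1/S than at G1 and S in endoderm and lower in hESCs. Of the 14657 regions tested, 904 (6.17%) had that pattern. The log2(signal + 1) difference of G1/S from G1 was 0.38 in endoderm and -2.49 in hESCs, and that of G1/S from S was 0.44 in endoderm and -1.87 in hESCs. The difference between the types was not tested, since each type and phase has 1 library. In RPM the endoderm G1/S value, 735, was below that of endoderm G1, 807, and above that of endoderm S, 673, so the opposite direction against G1 holds only with the size factors. The endoderm values stand on 4349, 2355 and 1685 reads in G1, G1/S and S, and the hESC values on 28530, 3688 and 23841 reads.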

How the results depend on the processing

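Each of the 5 chrM regions kept its sign in endoderm against hESC under the alternatives run. The number of called regions was 3, and 2 without the phase term and with the stricter filter, 4 with DESeq2, with quantile normalisation and with both scalings to total reads, 0 without the intensity trend, and 2 to 3 with 1 library left out. For G1/S against G1 it was 0, 1 with DESeq2 and 0 to 2 with 1 library left out (0 to 329 over all regions). For S against G1/S it was 0, 1 with DESeq2 and 0 to 3 with 1 library left out (0 to 245 over all regions), and for S against G1 it was 0 and 0 to 1 (0 to 201). Over all regions, calls in endoderm against hESC numbered 2125, against 987 with the stricter filter, 415 without both G1/S libraries and 419 to 2344 with 1 library left out. Called nuclear genes in the mitochondrial lists numbered 3, against 5 with DESeq2, 1 without the intensity trend, 1 with each scaling to total reads, 0 without both G1/S libraries and 0 to 4 with 1 library left out. Scaling to total reads moved the median difference of all regions to -0.14 (-0.17 over regions outside chrM), against 0.02. The summed chrM difference lay between -2.001 and -1.19 with 1 library left out and was -1.89 without both G1/S libraries. Sums and shares were compared without a phase term, so with 1 library left out the types no longer held the same phases. The NOVEL_2197 share difference, 3.52 percentage points, was -0.29 to 5.45 with 1 library left out and turned to -0.29 without endoderm G1/S. The cause of these shifts was not tested. Depth limits NOVEL_2196 most, at 106 reads in endoderm G1/S. Fits that leave out a library assume that the lone sample of a phase varies like the others. The phase term fits that lone sample exactly. The fitted difference between the types is therefore the same whichever library of a phase is left out, so these are not separate checks.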

Other observations

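Nuclear genes of the mitochondrial lists that came close to the threshold, chosen after their values were seen, went both ways in endoderm against hESC. RRM2B, a ribonucleotide reductase subunit that supplies precursors for mitochondrial DNA, had a signal of 48.3, 26.6 and 10.3 in endoderm at G1, G1/S and S, against 74.9, 57.3 and 72.7 in hESCs, without overlap (log2 difference -1.47 ± 0.48 SE, limma adjusted p = 0.0787). Its 10.3 in endoderm S rests on few reads, since 3 reads give 5.13 there. PPRC1, a coactivator of the PGC-1 family, had 338, 624 and 596 in endoderm, against 244, 275 and 264 in hESCs, also without overlap (0.94 ± 0.27 SE, limma adjusted p = 0.0589). Among all regions, 18.7% had every endoderm library below every hESC library, as RRM2B did, and 14.7% above, as PPRC1 did. NSUN4, an RNA methyltransferase of the mitochondrial ribosome, had 20.7, 6.65 and 22.3 in endoderm, against 93.8, 9.37 and 140.0 in hESCs, with overlap, since hESC G1/S lies below endoderm G1 and S (-1.72 ± 0.51 SE, limma adjusted p = 0.0631). Its 6.65 in endoderm G1/S lies near the 4.99 that 3 reads give there. Also near the threshold were C14orf156 (-0.80 ± 0.28 SE, limma adjusted p = 0.0911), VDAC3 (-1.23 ± 0.43, 0.0951) and SUPV3L1 (1.55 ± 0.55, 0.0956).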
